A study of Mus musculus with 5 samples.

Results

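Glycolysis and the transcriptional response to low oxygen were examined in mouse embryonic stem cells depleted of Tet1, the dioxygenase that oxidizes 5-methylcytosine in DNA. The set holds 37 genes chosen by name, of 18193 genes with a probe set on the arrays: 17 glycolytic enzymes, 4 glucose and lactate carriers, 4 pyruvate dehydrogenase kinases, and 12 genes of oxygen sensing or other targets of the hypoxia-inducible factor HIF. Probe sets with exactly 1 gene symbol, other than array controls, represented 34 of them. Of these, 32 were kept because they exceeded, on 1 array or more, the 40th percentile of the non-control probe sets, among 13619 genes kept in all. The neuronal enolase Eno2 (2.44 to 2.62 on the log2 scale) and the kinase Pdk2 (2.83 to 2.89) lay under that level on every array. Gapdh was represented by array control probe sets and by probe sets with several symbols, and Gpi1 and Eno1 were not analysed here.

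Each of the 5 groups is 1 Affymetrix array of total RNA. J1 cells, an embryonic stem cell line kept on mouse embryonic fibroblast feeders, had received Tet1 siRNA or control siRNA and were collected 4 days after transfection. E14 cells, another such line kept without feeders, had been infected with lentivirus carrying Tet1 shRNA3387, Tet1 shRNA2863 or scramble shRNA, and were collected after 4 days of puromycin selection. Line, feeders and the way of depletion therefore differ together and cannot be told apart, and the hairpins share 1 scramble array.

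Glycolysis converts glucose to pyruvate in the cytosol, and lactate dehydrogenase reduces pyruvate to lactate. Pyruvate dehydrogenase kinases hold pyruvate back from the mitochondria by phosphorylating pyruvate dehydrogenase. When oxygen is low, prolyl hydroxylases of the Egln family no longer mark HIF alpha subunits for destruction, and HIF binds promoters and enhancers with the core letters ACGTG or GCGTG. Pluripotent cells are known for high rates of glycolysis, and Egln enzymes, the histone demethylase Kdm3a and Tet1 all use oxygen and 2-oxoglutarate.

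RefSeq promoters were available for 35 of the 37 genes (GRCm38.p6). They are shown for Bnip3, Pfkp and Egln3, which differed at least 2-fold from control in 1 depletion and have 1 listed start, and for Ankrd37, which had the lowest unadjusted p over the depletions. Each is the 250 bases before the transcription start, 5′ to 3′ on the strand of the gene. Capitals mark ACGTG or GCGTG read on either strand (CACGT and CACGC are their reverse complements), and marked letters overlap where 2 matches share bases.
Bnip3, chr7:138909507-138909756, minus strand: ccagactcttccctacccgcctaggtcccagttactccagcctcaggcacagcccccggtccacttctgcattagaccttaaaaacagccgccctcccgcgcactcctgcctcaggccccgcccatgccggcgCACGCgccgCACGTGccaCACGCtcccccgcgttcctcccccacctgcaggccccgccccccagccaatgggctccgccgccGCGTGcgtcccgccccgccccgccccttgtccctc
Pfkp, chr13:6648772-6649021, minus strand: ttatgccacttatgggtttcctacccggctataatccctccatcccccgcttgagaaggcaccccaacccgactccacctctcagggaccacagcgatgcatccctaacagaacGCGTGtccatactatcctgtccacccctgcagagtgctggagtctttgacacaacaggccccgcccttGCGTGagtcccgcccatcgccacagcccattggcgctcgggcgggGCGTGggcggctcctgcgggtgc
Egln3, chr12:54203875-54204124, minus strand: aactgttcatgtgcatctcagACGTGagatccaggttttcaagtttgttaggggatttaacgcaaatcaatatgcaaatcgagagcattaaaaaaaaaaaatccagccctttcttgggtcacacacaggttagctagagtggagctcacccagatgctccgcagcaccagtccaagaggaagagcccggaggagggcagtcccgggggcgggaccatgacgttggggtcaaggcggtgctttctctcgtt
Ankrd37, chr8:45999851-46000100, minus strand: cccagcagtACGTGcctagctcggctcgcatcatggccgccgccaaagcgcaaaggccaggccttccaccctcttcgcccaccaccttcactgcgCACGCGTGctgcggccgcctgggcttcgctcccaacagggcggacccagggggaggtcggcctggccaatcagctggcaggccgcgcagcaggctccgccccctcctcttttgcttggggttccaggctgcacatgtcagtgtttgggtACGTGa
The Bnip3 window held 5 matches on the 2 strands together, Ankrd37 4, Pfkp 3 and Egln3 1. Windows with at least 1 match made up 40 of the 53 member windows (75.5%) and 38.6% of all 32851 RefSeq windows of this length. The letters ACGTG were in 45.3% of member windows and 16.6% of all windows, and GCGTG in 49.1% and 28.2%. Members were chosen by name, HIF targets among them, so a higher share could follow from the choice and is no test. Windows of 1 gene can also overlap and hold the same match, as at Aldoa and Eno1. These are letter matches and not measured binding.

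Tet1 probe set values were 8.31 with Tet1 siRNA and 10.85 with control siRNA in J1 cells, and 9.24 with shRNA3387, 10.06 with shRNA2863 and 10.95 with scramble shRNA in E14 cells. All 12 pluripotency markers exceeded the filter level on all 5 arrays. Markers of fibroblast feeders, of which 16 of 20 were kept, had summed signals of 12.61 and 12.42 (log2) on the J1 Tet1 siRNA and control arrays, and of 11.82 to 12.22 on the E14 arrays. The collagen Col1a2 and Sparc were higher in J1 control than in E14 scramble cells by 2.62 and 1.63, while 12 of the 16 markers were lower. Of these 16 markers, 14 to 16 exceeded the filter level on each array, E14 arrays included. The 3′ minus 5′ difference of the Gapdh control probe sets was -0.58 and -0.33 on the J1 Tet1 siRNA and control arrays, and -0.46 to -0.42 on the E14 arrays. For the Actb control probe sets it was 0.31 and 0.63 on these J1 arrays, and 0.41 to 0.54 on the E14 arrays. The J1 arrays were thus the lowest and highest on both controls. What share the feeder signal or RNA quality had in any result was not tested.

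Tet1 siRNA in J1 cells went with lower signal of most of these genes, whereas shRNA3387 in E14 cells went with higher signal of most, and shRNA2863 gave a mixed picture. Of the 32 kept genes, 25 were below control with Tet1 siRNA (50.4% of all kept genes were), with a median difference of -0.22. With shRNA3387, 23 of 32 were above scramble (41.7% of all kept genes were), with a median of 0.14. With shRNA2863, 19 of 32 were below scramble (55.1% of all kept genes were), with a median of -0.05. The medians over all 13619 kept genes were -0.01, -0.02 and -0.01. Among the 7108 kept genes with a mean log2 value over 6, 61.1% were below control with Tet1 siRNA and 56.3% above scramble with shRNA3387, against 78.6% and 71.4% of the 28 members at such levels. Pluripotency markers also differed: 12 of 12 were lower with Tet1 siRNA, with a median of -0.54, and 8 and 9 of 12 were lower with shRNA3387 and shRNA2863, with medians of -0.10 and -0.09. Feeder markers were lower with shRNA3387 at 14 of 16. The part of these shifts in the results was not tested, and in bulk RNA fewer cells of a type and less RNA per cell cannot be told apart.

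**Figure D1:**
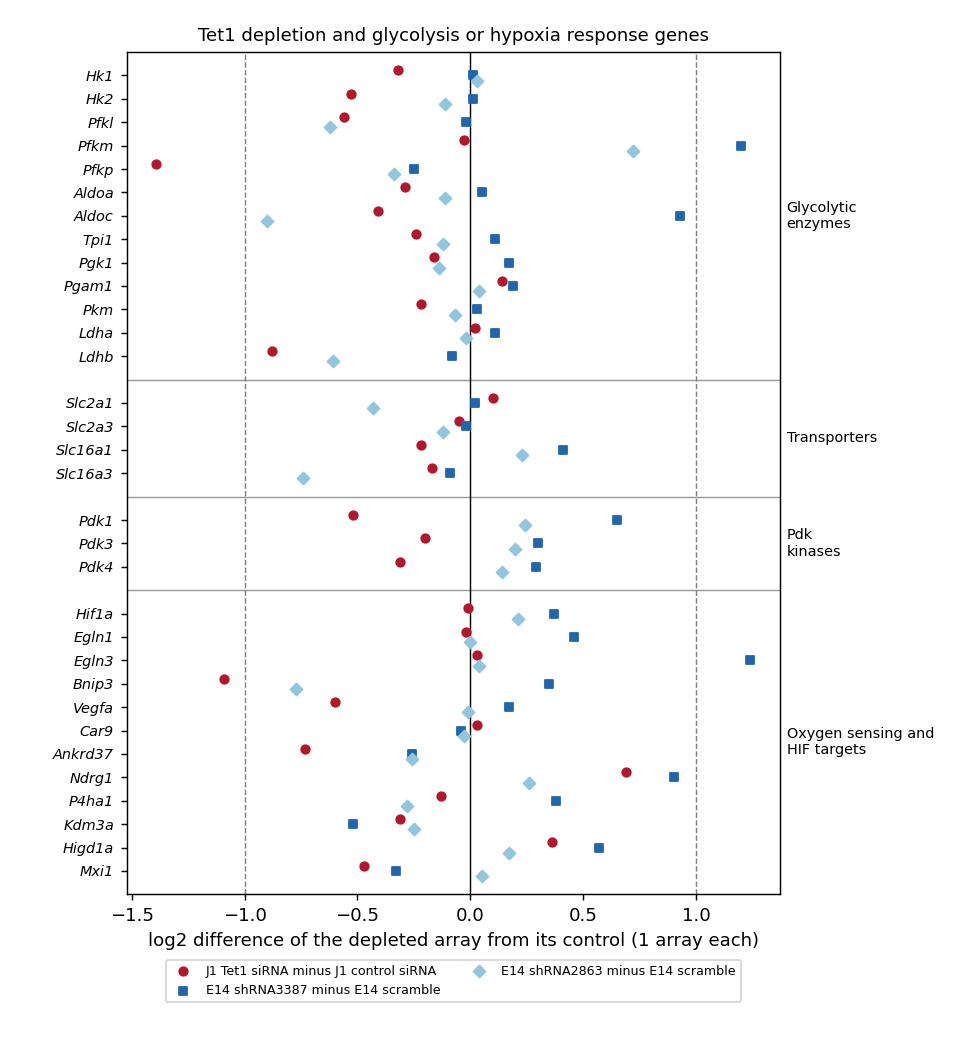
Log2 differences of each Tet1-depleted array from the control array of its own line (horizontal axis) for the 32 kept genes, grouped by role; dashed lines mark 2-fold. Pfkp and Bnip3 lie at -1.39 and -1.09 with Tet1 siRNA in J1, and Pfkm and Egln3 at 1.20 and 1.24 with shRNA3387.

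Among the 32 genes, 2 were at least 2-fold lower with Tet1 siRNA in J1 (1.1% of all kept genes were) and 0 were at least 2-fold higher (0.47%). With shRNA3387, 2 were at least 2-fold higher (1.15%) and 0 lower (0.653%). With shRNA2863, 0 were at least 2-fold higher (0.587%) and 0 lower (0.609%). At a smaller threshold of 1.5-fold, Tet1 siRNA in J1 had 1 higher and 5 lower (2.91% and 6.09% of all kept genes), shRNA3387 5 higher and 0 lower (5.39% and 3.36%), and shRNA2863 1 higher and 5 lower (3.63% and 3.26%). A difference between 2 single arrays carries no error, and these counts have no replicate check.

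No gene of the set passed the test over both lines. In the limma fit with a term for line and a term for Tet1 depletion, 0 of 13619 genes had an adjusted p under 0.05 (0%), and the lowest adjusted p among the 32 was 0.718. Ankrd37 and Kdm3a had an unadjusted p under 0.05, 2 of 32, as did 6.87% of all kept genes. The E14 effect over both hairpins was called for 0 genes, with 0 of the 32 and 11% of all genes at an unadjusted p under 0.05. The difference between the E14 and J1 effects was likewise called for 0 genes, with 1 of the 32, Pfkp, and 13.9% of all genes at an unadjusted p under 0.05.

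By the brightest probe sets, direction was shared by the 3 depletions at 11 of the 32 genes. Of these, 4 were higher in each (12.5%, with 13% of all kept genes) and 7 lower in each (21.9%, with 20.5%). Higher in each were Pgam1, Egln3, Ndrg1 and Higd1a, and lower in each were Pfkl, Pfkp, Ldhb, Slc2a3, Slc16a3, Ankrd37 and Kdm3a. These shares lie near those of all genes. Some other kept probe sets of these genes did not share the sign. With Tet1 siRNA they differed by 0.16 for Pfkp, 1.40 and 1.73 for Slc2a3 and -0.30 for Egln3. With shRNA3387, Ldhb probe sets differed by 0.13 and 0.10 and a Pfkl probe set by 0.48. At 8 of the 32 genes Tet1 siRNA in J1 and both hairpins in E14 had opposite signs (25%, with 34.7% of all kept genes), and this share is below that of all genes.

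Glycolytic enzymes were mostly lower with Tet1 siRNA and with shRNA2863. By the brightest probe sets of the 13 kept, 11 were below control with Tet1 siRNA, 3 below scramble with shRNA3387 and 10 with shRNA2863. Of all kept genes, 50.4%, 56.9% and 55.1% were below, and 61.1%, 41.8% and 43.7% of those with a mean log2 value over 6. Medians of the enzymes were -0.29, 0.05 and -0.11. The other 19 kept members had medians of -0.17, 0.30 and 0.00 in the same 3 depletions. Some other kept probe sets of Pfkp, Aldoa, Aldoc, Tpi1 and Pgk1 were above control with Tet1 siRNA. Those of Hk1, Pfkl and Ldhb were below it. With the median over probe sets in place of the brightest, the Tet1 siRNA median of the enzymes was -0.10 and the shRNA3387 median of the others 0.17. Under quantile normalization the shRNA2863 median of the other genes was -0.02 and under median centring 0.03, so it had no settled sign.

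The hexokinases commit glucose to the cell. Hk1, the form of most tissues, read 8.06 with Tet1 siRNA and 8.38 with control siRNA in J1, and 7.31 with shRNA3387, 7.33 with shRNA2863 and 7.30 with scramble in E14. The 3 E14 arrays were thus within 0.03 of each other and below both J1 arrays. Hk2, an inducible form bound to mitochondria, read 9.88 with Tet1 siRNA and 10.41 with control siRNA, and 10.24, 10.12 and 10.23 with shRNA3387, shRNA2863 and scramble.

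Phosphofructokinase, the committed step of glycolysis, has 3 isozymes. Pfkp, the platelet form, read 7.75 with Tet1 siRNA and 9.14 with control siRNA in J1 cells, 2.62-fold lower. In E14 cells Pfkp read 9.91 with shRNA3387, 9.82 with shRNA2863 and 10.16 with scramble. Both J1 arrays lay below all E14 arrays, and each depleted array lay below its control. The other 2 kept Pfkp probe sets differed by 0.16 and -0.33 with Tet1 siRNA, so the 2-fold difference rests on 1 of 3, and by -0.91 to -0.15 with the hairpins. The pooled difference of Pfkp was -0.76 ± 0.29 (SE, 3 depleted and 2 control arrays; limma unadjusted p = 0.0617, adjusted p = 0.718), and the E14 minus J1 difference of effects was 1.09 ± 0.13 (SE; limma adjusted p = 0.332).

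Pfkm, the muscle form, showed another pattern. It read 7.45 with Tet1 siRNA and 7.48 with control siRNA in J1, and 7.84 with shRNA3387, 7.36 with shRNA2863 and 6.64 with scramble in E14. The scramble array was the lowest of the 5, so that Pfkm was higher by 2.30-fold with shRNA3387 and by 1.65-fold with shRNA2863. Pfkl, the liver form, read 8.78 with Tet1 siRNA and 9.34 with control siRNA, and 9.02, 8.42 and 9.04 with shRNA3387, shRNA2863 and scramble. The pooled difference of Pfkl was -0.42 ± 0.23 (SE; limma adjusted p = 0.718). The other 2 kept Pfkl probe sets differed by -0.47 and -0.01 with Tet1 siRNA and by -0.64 and -0.02 with shRNA2863. With shRNA3387 they differed by -0.07 and 0.48, so a lower level there is not shared by all Pfkl probe sets.

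Aldolases split fructose bisphosphate into triose phosphates. Aldoc, the brain form, read 6.69 with Tet1 siRNA and 7.10 with control siRNA in J1, and 7.69 with shRNA3387, 5.86 with shRNA2863 and 6.76 with scramble in E14. The hairpins thus lay on opposite sides of scramble, 3.56-fold apart. Its other probe set ranged from 2.95 to 3.25 over the arrays, near the filter level, and did not show this gap. Aldoa, the main form, stayed between 11.75 and 12.04 in J1 and between 12.48 and 12.64 in E14.

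Enzymes of the lower pathway were bright and close to their controls. Tpi1, which interconverts the triose phosphates, differed by -0.24, 0.11 and -0.12 with Tet1 siRNA, shRNA3387 and shRNA2863. Pgk1, the first ATP-forming step, differed by -0.16, 0.17 and -0.14, and the mutase Pgam1 by 0.14, 0.19 and 0.04. Pkm, pyruvate kinase, differed by -0.22, 0.03 and -0.07, and Ldha, which makes lactate, by 0.02, 0.11 and -0.02. The widest of these differences, Tpi1 with Tet1 siRNA, was 1.18-fold. The 3 Gapdh control probe sets, which took no part in the fits, differed by -0.08 to 0.18 with Tet1 siRNA and by -0.04 to 0.03 with the hairpins.

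Ldhb, the lactate dehydrogenase subunit that favours the return of lactate to pyruvate, had wider differences than Ldha. It read 8.52 with Tet1 siRNA and 9.40 with control siRNA in J1, and 10.55 with shRNA3387, 10.02 with shRNA2863 and 10.63 with scramble in E14. The siRNA and shRNA2863 arrays were lower than their controls by 1.84-fold and 1.53-fold, while shRNA3387 was within 1.06-fold. All 3 other Ldhb probe sets were lower with Tet1 siRNA, by 0.61 to 0.85, and with shRNA2863, by 0.42 to 0.67. With shRNA3387 they differed by -0.01, 0.13 and 0.10, so a lower level there rests on the brightest probe set. The pooled difference was -0.57 ± 0.23 (SE; limma adjusted p = 0.718).

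Carriers were within 1.35-fold of their controls by their brightest probe sets, except Slc16a3 with shRNA2863. The glucose carriers Slc2a1 (Glut1) and Slc2a3 (Glut3) differed by 0.10 and -0.05 with Tet1 siRNA, by 0.02 and -0.02 with shRNA3387, and by -0.43 and -0.12 with shRNA2863. The lactate carrier Slc16a1 (Mct1) differed by -0.22, 0.41 and 0.23 in that order. Both other Slc2a1 probe sets were also lower with shRNA2863, by differences of -0.54 and -0.47. Slc16a3 (Mct4), which exports lactate, read 7.44 with Tet1 siRNA and 7.61 with control siRNA, and 6.51, 5.86 and 6.60 with shRNA3387, shRNA2863 and scramble, so that shRNA2863 was the lowest array.

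The 3 kept pyruvate dehydrogenase kinases had opposite signs in the 2 lines by their brightest probe sets, as did 34.7% of all kept genes. Pdk1, a HIF target, read 9.63 with Tet1 siRNA and 10.15 with control siRNA in J1, and 11.45 with shRNA3387, 11.04 with shRNA2863 and 10.80 with scramble in E14. The 2 next brightest probe sets of Pdk1 had larger J1 differences, of -1.14 and -1.62, and were higher with both hairpins by 0.15 to 0.69. The dimmest, at 3.45 to 3.75, was lower in each depletion, by differences of -0.29, -0.06 and -0.09. Pdk3 differed by -0.20, 0.30 and 0.20 and Pdk4 by -0.31, 0.29 and 0.14. Pdk4 read 3.39 to 4.19 over the arrays, close to the filter levels of 3.03 to 3.12. The differences of effect between E14 and J1 were 0.96 ± 0.37, 0.45 ± 0.16 and 0.53 ± 0.15 for Pdk1, Pdk3 and Pdk4 (SE, limma adjusted p = 0.437, 0.417 and 0.378). Each SE here draws on the hairpin pair and, through limma, on the spread of all kept genes. None of these 3 differences passed the test.

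The oxygen sensors and HIF1 alpha had their largest differences with shRNA3387 by their brightest probe sets. Egln3 (Phd3), a HIF target that hydroxylates HIF, read 6.46 with Tet1 siRNA and 6.43 with control siRNA in J1, and 6.92 with shRNA3387, 5.72 with shRNA2863 and 5.68 with scramble in E14. It was 2.36-fold higher with shRNA3387 and within 1.03-fold of its control with the others. Its other probe set likewise differed by 0.67 with shRNA3387 and -0.01 with shRNA2863, and by -0.30 with Tet1 siRNA. Egln1 (Phd2), the main oxygen sensor, differed by -0.02, 0.46 and 0.00, and Hif1a by -0.01, 0.37 and 0.21. The other Egln1 probe set differed by -0.48, 0.53 and 0.00. Other kept Hif1a probe sets differed by -0.12, 0.36 and 0.50 and by 0.92, -0.04 and -0.02, so their largest differences were not with shRNA3387.

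Bnip3, which directs mitochondria to autophagy, had the widest range among the other HIF targets. It read 7.89 with Tet1 siRNA and 8.98 with control siRNA in J1, and 10.40 with shRNA3387, 9.28 with shRNA2863 and 10.05 with scramble in E14. It was therefore 2.13-fold lower with Tet1 siRNA and 1.71-fold lower with shRNA2863, and 1.27-fold higher with shRNA3387. One probe set represents Bnip3. Epas1, the alpha subunit of HIF2 and no member of the set, differed by -1.09, 0.24 and -0.71 in the same order.

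Ankrd37, an ankyrin repeat protein and HIF target, was lower in each depletion. It read 5.77 with Tet1 siRNA and 6.50 with control siRNA, and 6.20, 6.20 and 6.46 with shRNA3387, shRNA2863 and scramble. Its pooled difference was -0.46 ± 0.15 (SE; limma unadjusted p = 0.0408, adjusted p = 0.718). Kdm3a, a demethylase of histone H3 lysine 9, read 9.20 and 9.51 with Tet1 and control siRNA, and 9.32, 9.59 and 9.84 with shRNA3387, shRNA2863 and scramble. The pooled value of Kdm3a was -0.35 ± 0.12 (SE; limma unadjusted p = 0.0421, adjusted p = 0.718). Both genes rest on 1 probe set each.

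Ndrg1 and Higd1a were higher in each depletion by their brightest probe sets. Ndrg1, a stress-responsive protein of differentiating cells, read 7.38 with Tet1 siRNA and 6.69 with control siRNA, and 6.35, 5.71 and 5.45 with shRNA3387, shRNA2863 and scramble. The other 3 kept Ndrg1 probe sets differed by 0.46, -0.02 and -0.02 with shRNA3387 and by 0.00, -0.01 and -0.03 with shRNA2863. The pooled difference of the brightest was 0.63 ± 0.24 (SE; limma adjusted p = 0.718). Higd1a, a mitochondrial inner membrane protein, read 9.25 and 8.89 with Tet1 and control siRNA, and 10.76, 10.36 and 10.19 with shRNA3387, shRNA2863 and scramble. The other 2 kept Higd1a probe sets differed by 0.04 and 0.01 with Tet1 siRNA, by 0.50 and -0.03 with shRNA3387, and by 0.50 and 0.24 with shRNA2863. The pooled value of Higd1a was 0.37 ± 0.15 (SE; limma adjusted p = 0.718).

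The remaining members were near background or had no common sign. Vegfa, the angiogenic factor, read 3.89 with Tet1 siRNA and 4.49 with control siRNA, and 4.11 to 4.29 on the E14 arrays. Car9, a carbonic anhydrase and classic HIF target, lay between 3.62 and 3.68 on all 5 arrays, close to the filter levels of 3.03 to 3.12. P4ha1, a collagen prolyl hydroxylase, differed by -0.13, 0.38 and -0.28, and Mxi1, a Myc antagonist, by -0.47, -0.33 and 0.05.

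**Figure D2:**
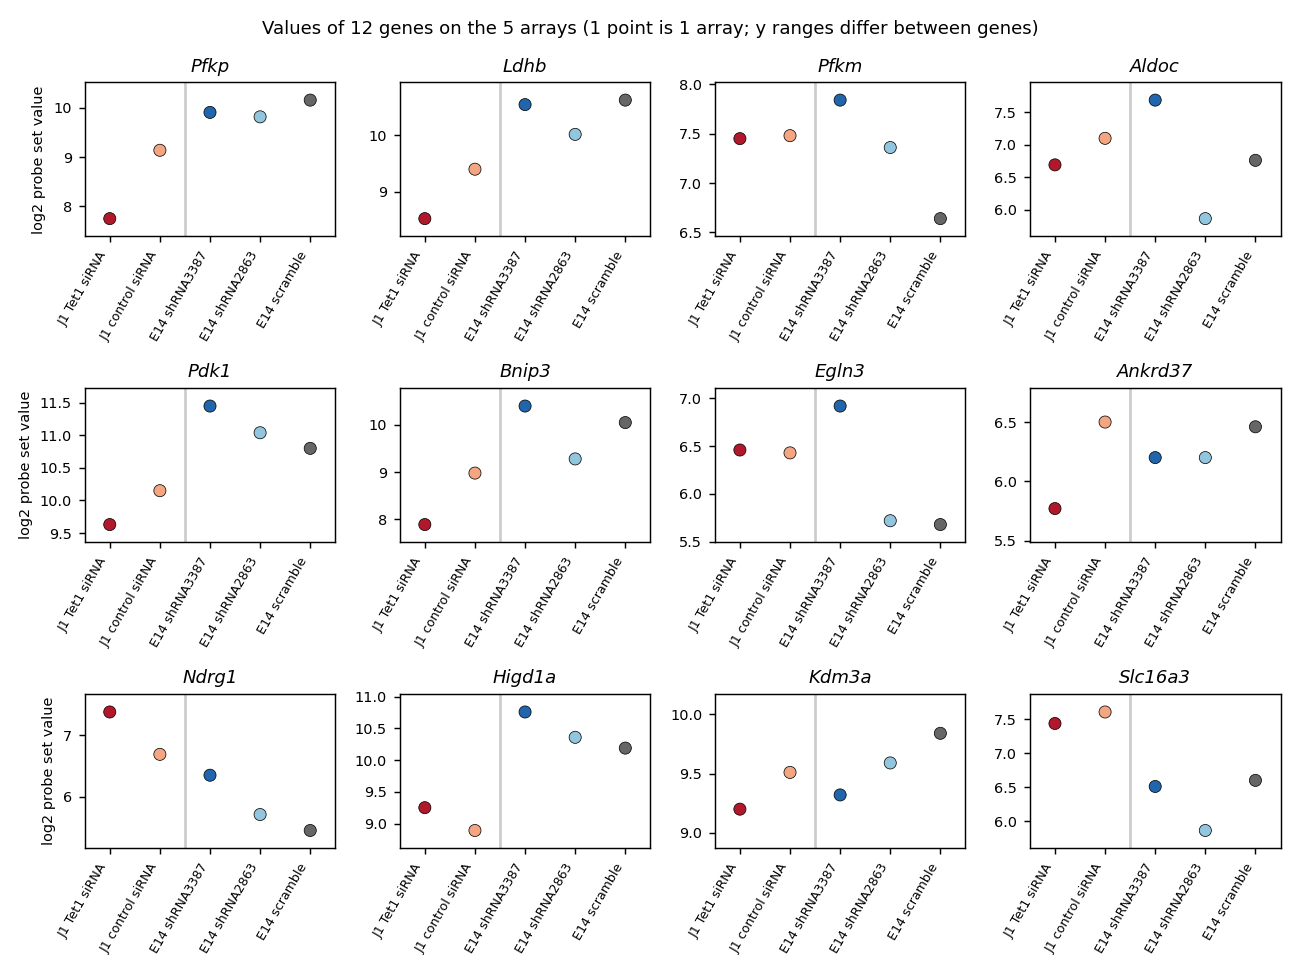
Log2 probe set values of 12 genes on the 5 arrays, 1 point an array, with J1 arrays left of the grey line and E14 arrays right of it; the vertical range differs between genes. The J1 Tet1 siRNA array is the lowest for Pfkp, Ldhb, Pdk1, Bnip3, Ankrd37 and Kdm3a. The shRNA3387 array is the highest for Pfkm, Aldoc, Pdk1, Bnip3, Egln3 and Higd1a.

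Signal of most of these genes was higher with shRNA3387 than with shRNA2863, in a comparison of 2 single arrays with no error. It was higher for 27 of the 32, among them 12 of the 13 glycolytic enzymes, with a median of 0.18. All kept genes had a median of -0.01, and 40% of them were higher. Among kept genes with a mean log2 value over 6 the share was 51.2%, with 85.7% of the 28 members at such levels. At least 2-fold higher with shRNA3387 were Aldoc, Egln3 and Bnip3 (differences of 1.83, 1.20 and 1.12), 3 of 32 (0.661% of all kept genes), and 0 were at least 2-fold lower (0.345%). At 1.5-fold, 7 of 32 were higher (3.53% of all kept genes) and 0 lower (2.11%). Tet1 itself was lower with shRNA3387 (9.24) than with shRNA2863 (10.06), each on 1 array.

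Levels in J1 and E14 cells differed for several members. Each J1 array lay above each E14 array for 8 of the 32 (21.8% of all kept genes did) and below for 11 (27.1%). In the limma fit the line term, which compares 2 J1 with 3 E14 arrays, was called for 7 of the 32. J1 cells had the higher level at 2 of them (7.8% of all kept genes were called so) and the lower at 5 (6.37%). The fit codes Tet1 depletion as yes or no, with a common effect for both lines, although Tet1 levels differed between the depleted arrays. For Pfkp the line term was -1.65, while the undepleted arrays differed by -1.02. Of the 7 called genes 5 were among the 13 kept glycolytic enzymes. Among kept genes with a mean log2 value over 6, 7 of 28 members and 1451 of 7108 genes were called in either direction. With any 1 of the 5 arrays left out, 0 of the 32 and 0 of all 13619 genes passed, on 1 residual degree of freedom, with a lowest limma adjusted p among the 32 of 0.0876 to 0.112. With all 5 arrays, 18 of the 32 had an unadjusted limma p under 0.05 in the line term, as did 4383 of all 13619 kept genes. At a mean log2 value over 6, it was 17 of 28 members and 3178 of 7108 kept genes.

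The glycolytic enzymes that differed were Hk1, higher in J1 by 0.89 ± 0.12 (limma adjusted p = 0.0317), and 4 that were lower. Tpi1 read 10.95 and 11.19 on the J1 Tet1 siRNA and control arrays, and 12.10, 11.87 and 11.99 with shRNA3387, shRNA2863 and scramble, a difference of -0.93 ± 0.11 (SE; limma adjusted p = 0.0249). Aldoa differed by -0.70 ± 0.09 (limma adjusted p = 0.0291), Ldhb by -1.54 ± 0.23 (adjusted p = 0.0358) and Pfkp by -1.65 ± 0.29 (adjusted p = 0.0449). All other probe sets of Tpi1, Aldoa and Ldhb had the same sign. Both other Pfkp probe sets had the opposite sign, at 1.16 ± 0.29 and 0.50 ± 0.11 (limma adjusted p = 0.0907 and 0.0736), so a direction for the gene is not settled. Without the filter on low values the adjusted p of Pfkp was 0.0504 and that of Ndrg1 0.0543, and with the median over probe sets that of Ldhb was 0.0592, each above the threshold.

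Of the HIF targets, Ndrg1 was higher in J1 by 1.30 ± 0.24 (limma adjusted p = 0.0471) and Higd1a lower by a difference of -1.31 ± 0.15 (adjusted p = 0.0249). The second brightest Higd1a probe set showed no difference beyond its error (0.00 ± 0.15), and with the median over probe sets the adjusted p was 0.0747 for Ndrg1 and 0.99 for Higd1a. Members whose J1 and E14 arrays did not overlap without passing the test were Pgam1, Ldha, Pdk1, Pdk4, Bnip3 and Mxi1 on the lower side in J1, and Pkm, Slc2a3, Slc16a3, Pdk3, Hif1a and Egln1 on the higher. Bnip3 (-1.57 ± 0.45, limma adjusted p = 0.103), Pdk1 (-1.20 ± 0.29, adjusted p = 0.0762) and Slc16a3 (1.15 ± 0.25, adjusted p = 0.0623) had the largest differences of these. All this is by the brightest probe sets. In a fit over all kept probe sets, the other Pdk1 ones differed by -0.80, -0.87 and 0.09, and their J1 and E14 arrays overlapped. Other Slc2a3 probe sets differed by -0.17, 4.94 and 3.73, and the other Mxi1 probe set by -0.04. Between the undepleted arrays, 3 members were at least 2-fold higher in J1 control than in E14 scramble (Hk1, Slc16a3 and Ndrg1; 4.84% of all kept genes) and 4 at least 2-fold lower (Pfkp, Ldhb, Bnip3 and Higd1a; 3.52%). At 1.5-fold, 8 of 32 were higher (13.4% of all kept genes) and 7 lower (9.69%).

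**Figure D3:**
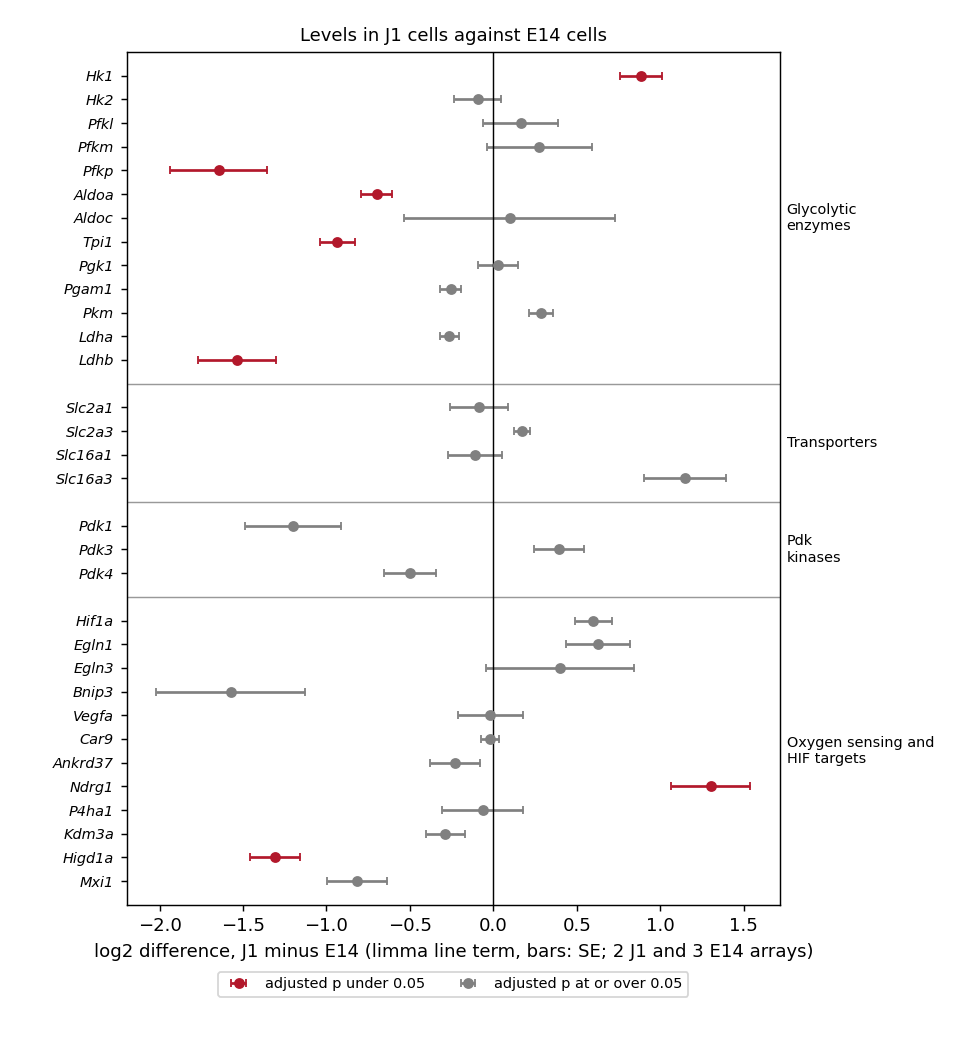
Log2 differences of J1 minus E14 (horizontal axis; limma line term over 2 J1 and 3 E14 arrays, bars show the SE) for the 32 kept genes by role. Red marks the 7 genes with an adjusted p under 0.05: Hk1 and Ndrg1 on the positive side, and Pfkp, Aldoa, Tpi1, Ldhb and Higd1a on the negative side.

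Probe sets of the same gene could differ widely, as at Pfkp, Slc2a3, Hif1a, Ndrg1 and P4ha1. Of 37 other kept probe sets of 19 members, 23 had the sign of the brightest one with Tet1 siRNA, 23 with shRNA3387, 28 with shRNA2863 and 27 in the line term. The dimmer pair of Slc2a3 probe sets differed from the brighter pair. The brighter of the dimmer pair read 10.12 with Tet1 siRNA and 8.72 with control siRNA in J1, and 4.50, 4.27 and 4.83 with shRNA3387, shRNA2863 and scramble. The dimmest read 9.24 with Tet1 siRNA and 7.51 with control siRNA, and 4.63, 4.17 and 5.25 with shRNA3387, shRNA2863 and scramble. Both brighter ones stayed between 11.58 and 12.85 on all 5 arrays.

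In a fit over all kept probe sets the brighter of that dimmer Slc2a3 pair was higher in J1 by 4.94 ± 0.50 (SE; limma adjusted p = 0.0202), against 0.17 ± 0.04 for the brightest (adjusted p = 0.0903). A dimmer Hif1a probe set read 6.38 with Tet1 siRNA and 5.46 with control siRNA in J1 and 2.13 to 2.17 in E14, under the filter level, a difference of 3.83 ± 0.26 (adjusted p = 0.013). The second Hk1 probe set also exceeded the first in this comparison, at 2.67 ± 0.07 (adjusted p = 0.00995).

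With Tet1 siRNA in J1 some dimmer probe sets were higher than control where the brightest were not. The differences were 1.40 and 1.73 for Slc2a3 (-0.05 and -0.26 for the brighter pair), 0.92 for 1 of 2 dimmer Hif1a probe sets (-0.12 for the other and -0.01 for the brightest) and 1.27 for P4ha1 (-0.13). For Ndrg1 all 4 kept probe sets were higher with Tet1 siRNA, by 0.69, 0.81, 1.32 and 2.45. The last read 5.76 with Tet1 siRNA and 3.31 with control siRNA, and 3.29 to 3.32 on the E14 arrays, so 1 array stood apart. The statements on these genes above therefore hold for their brightest probe set.

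**Figure D4:**
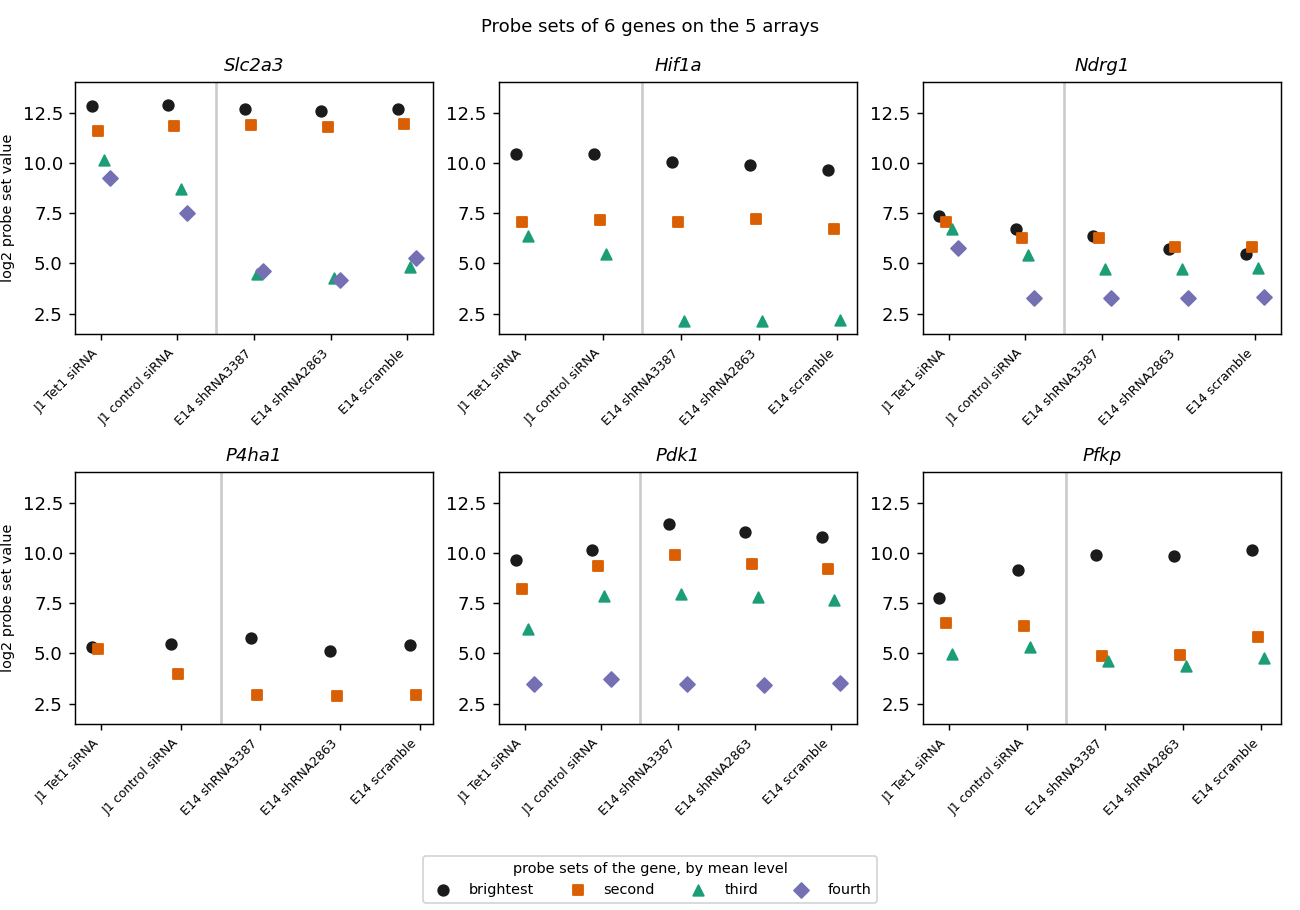
Log2 values of the kept probe sets of 6 genes on the 5 arrays, ordered by mean level (black is the brightest). The dimmer pair of Slc2a3 probe sets lies between 7.51 and 10.12 on the J1 arrays and between 4.17 and 5.25 on the E14 arrays, while the 2 brightest stay between 11.58 and 12.85.

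Neighbouring pathways were described from lists that leave out the members. Other glycolysis genes (13 kept) had medians of 0.01, -0.02 and -0.01 with Tet1 siRNA, shRNA3387 and shRNA2863, and other HIF targets (29 kept) of 0.00, -0.01 and -0.01. Gys1, Pfkfb3 and Pfkfb4 are on both of these lists. Bpgm, which makes 2,3-bisphosphoglycerate, and Pgm1, which feeds glucose 1-phosphate into glycolysis, differed by 0.09, 0.83 and 0.64 and by 0.08, 0.72 and 0.61. Pfkfb2, a regulator of phosphofructokinase, differed by -0.56, -0.01 and -0.05. P4ha2, another collagen prolyl hydroxylase, differed by 0.50, 0.50 and 0.80 (pooled 0.59 ± 0.14 SE; limma adjusted p = 0.7), the vasoconstrictor Edn1 by -0.91, -0.02 and -0.01, and the lipase inhibitor Angptl4 by -0.67, -0.27 and -0.08.

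HIF regulators (14 kept) had medians of -0.17, 0.08 and 0.01, with Epas1 above, the elongin Eloc of the von Hippel-Lindau ligase at 0.18, 0.26 and 0.29, and the prolyl hydroxylase Egln2 at -0.09, -0.30 and -0.19. Genes of pyruvate oxidation and the citric acid cycle (24 kept) had medians of 0.01, 0.02 and 0.02. Pyruvate carboxylase, Pcx, was lower in each depletion, by -0.90, -0.39 and -0.61 (pooled -0.67 ± 0.15 SE; limma unadjusted p = 0.0133, adjusted p = 0.7). Pdp1, the phosphatase that reverses the pyruvate dehydrogenase kinases, differed by 0.00, -0.63 and -0.82, and the E3 subunit Dld by 0.47, 0.22 and 0.24.

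Oxidative phosphorylation genes (19 kept) had medians of -0.01, 0.05 and 0.06, and pentose phosphate genes (7 kept) of 0.05, 0.18 and 0.17. The cytochrome oxidase subunit Cox6c differed by 0.45, 0.10 and 0.19, the complex I subunit Ndufb8 by 0.36, 0.14 and 0.16, and cytochrome c, Cycs, by 0.49, 0.03 and 0.05. Of the pentose phosphate genes, the lactonase Pgls differed by -0.40, -0.05 and -0.26, the dehydrogenase Pgd by 0.07, 0.18 and 0.17, and the transketolase Tkt by -0.10, 0.39 and 0.18. Limma called 0 genes of these 6 lists over the depletions, with 8 genes at an unadjusted p under 0.05. These were 2 of 29 HIF targets, 1 of 14 HIF regulators, 4 of 24 citric acid cycle and pyruvate oxidation genes and 1 of 19 oxidative phosphorylation genes. Of all kept genes, 6.87% had such a p.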

How the data were processed

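Affymetrix arrays of 5 samples were used, 1 in each group taken from the labels. The values deposited by the authors give 1 number a probe set, taken as log2 from a range of 1.38 to 14.12. How background, summary and normalization were handled was not named in any label or header used here. They were used as deposited. Precision is limited by the number of arrays. Gene symbols came from GEO's platform annotation, and the probe set with the highest mean among those with exactly 1 symbol stood for its gene. Genes above the 40th percentile on at least 1 array were kept. All columns were assigned to a sample. No 2 arrays were copies (at most 14.7% of values identical).

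Differences between single arrays have no test and were counted past 2-fold. Limma 3.58.1 in R 4.3.3 (mean-variance trend, two-sided, Benjamini-Hochberg adjustment over all 13619 kept genes, threshold 0.05) gave the Tet1 and line terms on 2 residual degrees of freedom, and the E14 effect and its difference from J1 in a fit of 4 means on 1. Each SE is the moderated value of limma, which draws on the spread of all genes or probe sets in the fit. As the labels do not say that arrays came from separate cultures, p-values reflect the spread between arrays alone. The scripts were tested on simulated data. The member genes, gene lists and alternatives were chosen with earlier results of these data known; the fit over all probe sets was added after seeing the data. All members are named, with up to 3 genes per neighbouring list by size of the pooled difference; Col1a2, Sparc and some values of other probe sets were picked after they were seen. Promoter windows are RefSeq sequences of GRCm38.p6.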

Additional observations from a re-analysis of the deposited data

How the results depend on the processing

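The pooled Tet1 effect called 0 of the 32 genes under every alternative run: quantile normalization, median centring, other filters, the median over probe sets, no trend, no line term, and each array left out (lowest adjusted p 0.30 to 1). No pooled direction of the 11 genes with a shared sign reversed. A pooled direction can hold while single depletions change sign. Single depletions had the other sign at some other probe sets of Pfkl, Pfkp, Ldhb, Slc2a3 and Egln3, among others. The line term called 12 of the genes with a filter at the 60th percentile, where 25% of all genes tested were called, against 7 and 14.2% in the report, and 0 with any array left out. With the median over probe sets its Pfkp difference reversed to 1.16. That summary also gave 1 gene at least 2-fold higher with Tet1 siRNA, 1 with shRNA3387, 1 with shRNA3387 over shRNA2863 and 1 at least 2-fold lower in J1 control than in E14 scramble. Its medians were -0.10 for glycolytic enzymes with Tet1 siRNA, 0.17 for other members with shRNA3387, and 0.02 and 0.17 for both groups between J1 control and E14 scramble. The filter at the 60th percentile gave medians of other members of 0.16 between J1 control and E14 scramble and 0.40 between the hairpins. Quantile normalization left 1 member at least 2-fold higher in J1 control than in E14 scramble; over all genes it gave 439 higher and 638 lower, against 659 and 479 as deposited, and for shRNA3387 116 and 115, against 157 and 89 (200 and 70 after median centring). At 1.5-fold, J1 control against E14 scramble had 8 members higher and 7 lower (13.4% and 9.69% of all kept genes), and shRNA3387 against shRNA2863 had 7 higher (3.53%); Tet1 siRNA had 1 and 5, shRNA3387 5 higher, and shRNA2863 1 and 5. Other causes were not tested. No paired analysis was possible because each group holds 1 array.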
